A study of Mus musculus with 6 samples.

Results

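Osteoclasts and their precursors read their surroundings through a small set of surface receptors, and the transcripts of 10 of these were followed here in mouse osteoclasts. They were taken by gene symbol from the deposited count table, and all 10 were found among its 23204 genes and among the 14040 genes with enough reads to be tested. The set is Tnfrsf11a (RANK), Csf1r, Csf2ra, Csf2rb, Csf2rb2, Csf3r, Tnfrsf1a, Tnfrsf1b, Lgr4 and Calcr.

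The RNA came from bone marrow cells of C57BL/6 mice that had adhered after 2 days in M-CSF and were then kept in RANKL with M-CSF to form osteoclasts. A first group of 3 libraries was wild type. The other 3 carried the label Tet2Rank–/–; Tet3aRank+/– and the column name Tet2KOTet3Het, read here as loss of both copies of Tet2 and of 1 copy of Tet3, which encode enzymes that oxidise methylated cytosine; they are called the mutant libraries. Per the labels, each genotype had 1 female and 2 male samples, but the columns do not show which is which, nor whether each came from a different animal, so the p-values speak for the variation among these libraries alone, which may be technical. The sources used here do not state ages, which parts of the genes were deleted, in which cells, or what Rank and the letter a in the label stand for. RANK is also the protein name of Tnfrsf11a, and whether the mutant libraries carry a changed Tnfrsf11a locus is likewise not stated, so that any effect of such a change and one of the Tet alleles cannot be told apart.

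RANK binds RANKL and drives precursors into the osteoclast fate through TRAF adaptors and NFATc1. CSF1R binds M-CSF and IL-34 and keeps cells of the monocyte lineage alive and dividing. GM-CSF signals through CSF2RA, which gives specificity, with a shared beta chain from Csf2rb; mice have a close copy, Csf2rb2, whose product serves IL-3. CSF3R is the G-CSF receptor, best known from neutrophils. TNF acts through TNFR1 (Tnfrsf1a), which has a death domain, and TNFR2 (Tnfrsf1b), which lacks one. LGR4 is a receptor for R-spondins that has also been described as a receptor for RANKL that opposes RANK, and the calcitonin receptor (Calcr) is a marker of mature osteoclasts through which calcitonin halts resorption.

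Each library keeps the first number of its column name: 1, 4 and 6 were wild type and 2, 3 and 5 mutant. Total counts ran from 8794973 to 14267135 per library. Columns of libraries 5 and 6 carry a second number in their name, and these 2 libraries are 1 of each genotype. A term for this column-name split, whose meaning the labels do not give, lowered the common biological coefficient of variation from 40.9% to 23.5%. Tet2 gave 71.7, 80.9 and 79.3 CPM (read counts brought to a common library size with TMM factors) in libraries 1, 4 and 6, against 58.2, 45.5 and 52.3 CPM in libraries 2, 3 and 5 (edgeR adjusted p = 0.0924, 0.0400 with the split as a term, and 0.00635 in DESeq2). The mutant mean of Tet2 was still 67.3% of wild type, so its counts were lower but did not show a loss of both copies. Tet3 was not lower (131 CPM ± 12.4 against 153 CPM ± 11.4, SD, n = 3 each), so the counts of Tet3 did not show the labelled loss. For both genes, whether the reads fall in the deleted exons is not known here. The 9 osteoclast markers were all detected, and all 9 had a log2 fold change below 0: their summed level was 15105 to 39568 CPM in wild type against 2954 to 12309 CPM in the mutants, lowest in library 2 and highest in library 6. The 9 macrophage markers summed to 2883 to 4177 CPM and 6004 to 6450 CPM, with 8 of 9 above 0. In bulk RNA, fewer cells of a type and less RNA per cell cannot be told apart, and the part of either marker list in the differences below was not tested.

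Over all genes, 10 of 14040 (0.0712%) passed an adjusted p of 0.05 in edgeR's quasi-likelihood test, 7 higher (0.0499%) and 3 lower (0.0214%) in the mutant libraries, and 0 of the 10 receptors did. Of the receptors 4 had an unadjusted p under 0.05, where 19.6% of all genes did, and DESeq2 called 1, Csf3r, where it called 10.2% of all genes (4.72% higher and 5.44% lower). With the column-name split as a term in the edgeR fit, 8.68% of all genes passed (3.08% higher and 5.6% lower) and 3 receptors did: Csf3r rose and Tnfrsf11a and Calcr fell. This count changed with the library left out: it was 2 without library 1, 1 without library 2, 5 without library 3 and 0 without library 4. Calls over all genes moved too in these fits, to 564 of 14659, 418 of 14266, 1845 of 14587 and 170 of 14313 in the same order. Whether these shifts come from the library left out or from the smaller number of libraries was not tested. Libraries of the genotypes did not overlap for 26.8% of all genes (9.91% higher and 16.9% lower in the mutant libraries) and for 4 receptors, Csf3r, Tnfrsf1b, Tnfrsf1a and Csf2rb2, each higher in the mutant libraries. The median log2 fold change of the receptors was 0.30, with 7 above 0 and 3 below, beside a median of -0.03 over all genes tested, of which 46.8% lay above 0 and 53.2% below.

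**Figure D1:**
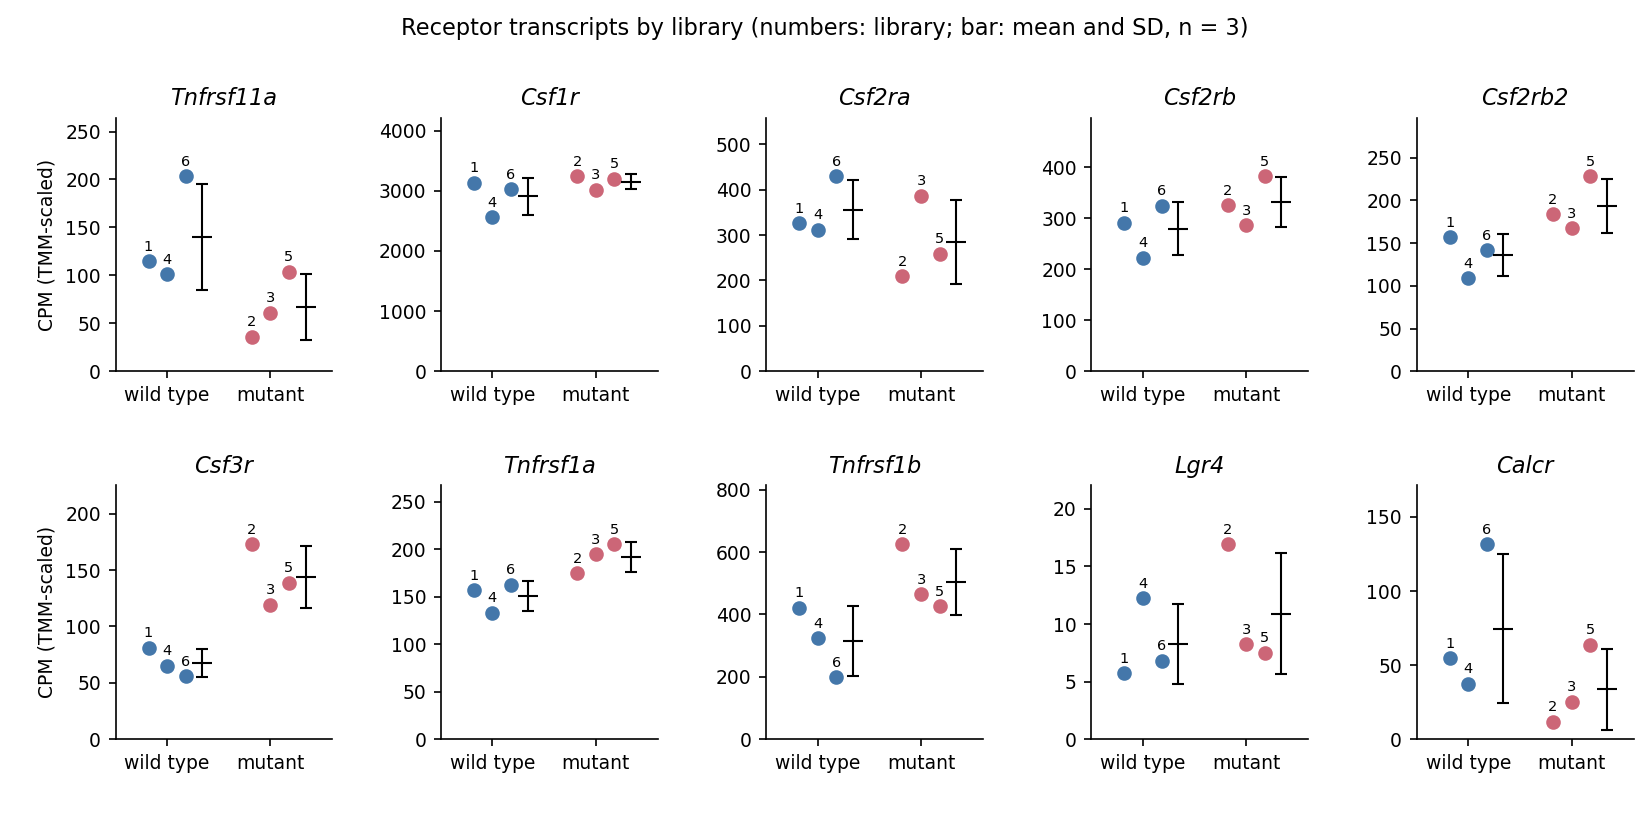
CPM of each receptor gene in each library (points, numbered by library), by genotype, with the mean and SD of 3 libraries (bars) and an own linear axis from 0 for each gene. Points of Csf3r, Tnfrsf1b, Tnfrsf1a and Csf2rb2 lie higher in every mutant library than in any wild-type one. The groups of Tnfrsf11a and Calcr overlap through mutant library 5, which lies above wild-type library 4 for Tnfrsf11a and above libraries 1 and 4 for Calcr.

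Tnfrsf11a (ENSMUSG00000026321, chromosome 1, 105780718 to 105847981, plus strand, mm10) had 985, 1310 and 2538 counts in libraries 1, 4 and 6 and 516, 601 and 1394 counts in libraries 2, 3 and 5. As CPM these were 115, 101 and 203 in wild type against 36.1, 61.2 and 104 in the mutants. Library 5 of the mutants lay just above library 4 of the wild type, which was the only crossing of the groups. The mutant mean was 47.9% of wild type (67.0 CPM ± 34.2 against 139.9 CPM ± 55.4, SD, n = 3 each), a log2 difference of -1.06 (SE 0.435, 95% interval -2.11 to -0.01, edgeR adjusted p = 0.249). With the column-name split as a term it was -1.09 (SE 0.197, edgeR adjusted p = 0.0256), with -1.20 for libraries 1 to 4 taken alone and -0.97 for library 5 against 6. That adjusted p became 0.0630 without library 1 and 0.0679 without library 4 (edgeR, column-name split as a term). Across the libraries the level followed the same order as the osteoclast markers at both ends, lowest in library 2 and highest in library 6.

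Calcr (ENSMUSG00000023964, chromosome 6, 3685680 to 3764714, minus strand) varied most of the 10, by 11.3-fold from the lowest library to the highest. It stood at 54.5, 37.5 and 132 CPM in libraries 1, 4 and 6 and at 11.7, 25.2 and 63.9 CPM in libraries 2, 3 and 5. As with RANK, library 2 was lowest and library 6 highest, and library 5 lay above libraries 1 and 4, so the genotypes overlapped. The mutant mean was 45% of wild type, and the log2 fold change was -1.15 (SE 0.708, 95% interval -2.85 to 0.55, edgeR adjusted p = 0.451). The split as a term gave -1.23 (SE 0.286, edgeR adjusted p = 0.0473); this passed without library 3 and did not pass without library 1, 2 or 4 (adjusted p = 0.110, 0.0613 and 0.0825, edgeR).

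Tet enzymes act on methylated cytosines, which in mammals lie mostly in CG pairs, so start regions of 3 receptors are shown. Tnfrsf11a and Calcr were lower with the split as a term. Tnfrsf1b was higher without overlap but passed in no fit on all libraries. For Csf3r, the receptor that rose with the split, only the number of CG pairs is given below. For Tnfrsf11a, Calcr and Tnfrsf1b, the 250 bases before the RefSeq start (GRCm38.p6, the build of the table) follow. They are read 5′ to 3′ on the gene's strand with each CG pair in capitals. For Tnfrsf11a this is chr1:105780473-105780722, plus strand; for Calcr, at the start site furthest upstream, chr6:3764714-3764963, minus strand; for Tnfrsf1b chr4:145246871-145247120, minus strand.
Tnfrsf11a: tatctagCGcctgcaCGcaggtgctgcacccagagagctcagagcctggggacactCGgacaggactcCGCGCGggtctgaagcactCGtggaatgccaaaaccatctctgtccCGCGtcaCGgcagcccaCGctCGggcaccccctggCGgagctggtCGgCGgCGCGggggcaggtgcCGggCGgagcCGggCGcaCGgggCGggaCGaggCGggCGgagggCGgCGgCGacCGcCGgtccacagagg
Calcr: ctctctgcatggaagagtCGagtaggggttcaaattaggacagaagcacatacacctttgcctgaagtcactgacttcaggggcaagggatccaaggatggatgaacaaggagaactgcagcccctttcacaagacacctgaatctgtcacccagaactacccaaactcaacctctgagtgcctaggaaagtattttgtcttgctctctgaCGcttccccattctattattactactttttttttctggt
Tnfrsf1b: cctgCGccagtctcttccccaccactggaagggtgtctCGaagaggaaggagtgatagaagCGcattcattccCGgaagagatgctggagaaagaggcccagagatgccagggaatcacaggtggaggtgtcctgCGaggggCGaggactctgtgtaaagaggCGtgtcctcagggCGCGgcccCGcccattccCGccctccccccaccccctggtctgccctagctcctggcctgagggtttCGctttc
These stretches hold 31, 2 and 12 CG pairs. Over the full window of 300 bases, with 50 bases after the start added, Tnfrsf11a had 43 CG pairs, more than 97.4% of the 32851 windows in the RefSeq table, whose median is 7. Calcr had 4 at this start and 29 at a second RefSeq start 1091 bases downstream of the annotated gene start. Tnfrsf1b had 13, Csf2ra 23, Lgr4 18, Tnfrsf1a 11, Csf3r 9 and Csf2rb2 3. Starts of the receptors thus ran from CpG-poor to CpG-rich. DNA methylation was not analysed here, and the table gave windows for 8 receptors, not for Csf1r and Csf2rb.

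Short motifs of 3 factors active in the lineage were searched in the same windows on both strands. GAGGAA, the core bound by PU.1, was found in the windows of Csf2ra (2 matches), Csf2rb2 (2), Csf3r (1), Lgr4 (1) and Tnfrsf1b (1), and in 28.3% of all windows. TGANTCA, the AP-1 site, and TGGAAA, the core bound by NFAT, were in none of the windows of these 8 receptors. They were in 7.81% and 21.4% of all windows. A match describes the letters only.

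Csf1r (ENSMUSG00000024621, chromosome 18, plus strand) had the highest counts and the smallest spread of the 10. It stood at 3134, 2563 and 3026 CPM in libraries 1, 4 and 6 and at 3244, 3018 and 3201 CPM in libraries 2, 3 and 5. The mutant values lay inside or just above the wild-type range, and the highest library was 1.27-fold over the lowest. Its log2 fold change was 0.12 (SE 0.145, edgeR adjusted p = 0.754), with a 95% interval of -0.23 to 0.47. Its exons overlap those of Hmgxb3 on the other strand over 873 bases, and 13.9% of the 75-base windows of its transcripts lie in that overlap; no source used here states whether counting used the strand, so such reads may belong to either gene.

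Csf3r (ENSMUSG00000028859, chromosome 4, 126024550 to 126044440, plus strand) had the lowest edgeR p of the 10. Counts of 697, 842 and 700 in libraries 1, 4 and 6 set against 2473, 1170 and 1865 in libraries 2, 3 and 5, or 81.3, 65.2 and 56.1 CPM against 173, 119 and 139 CPM. Every mutant library lay above every wild-type one, and the mutant mean was 213% of wild type. The log2 fold change was 1.09 (SE 0.195, edgeR adjusted p = 0.0768). It was 1.10 with the split as a term (edgeR adjusted p = 0.0213), a fit in which it did not pass without library 2 or 4 (adjusted p = 0.0542 and 0.0575, edgeR). DESeq2 gave 1.13 with an adjusted p of 1.11e-05. The two-sided exact permutation p was 0.1, the smallest that 3 libraries against 3 can give. Of the 11 neutrophil markers, all reached 1 CPM in some library and none was at 0 throughout; their sum was 293 to 956 CPM in the wild-type and 479 to 1431 CPM in the mutant libraries. That sum was highest in libraries 5 and 6 and 479 CPM in library 2, where Csf3r was highest. It was 324 and 293 CPM in libraries 1 and 4 against 479 and 559 CPM in libraries 2 and 3. Library 6 had 956 CPM against 1431 CPM in library 5. Enough reads were present for 10 of these genes, 9 of them above 0 and 1 below. With the split as a term S100a8, S100a9, Ltf and Ngp passed, each higher in the mutant libraries, and the rest of the 10 did not. What part neutrophil RNA had in the Csf3r counts was not tested. Of the 75-base windows of Csf3r transcripts 3.13% also occur in other genes.

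The GM-CSF receptor chains had fold changes of opposite sign, and neither passed the test. Csf2ra (ENSMUSG00000059326, chromosome 19, 61223957 to 61228429, minus strand), the alpha chain, stood at 327, 311 and 429.6 CPM in libraries 1, 4 and 6 and at 209, 387 and 259 CPM in libraries 2, 3 and 5; mutant library 3 lay within the wild-type range and libraries 2 and 5 below it. Its log2 fold change was -0.32 (SE 0.256, 95% interval -0.94 to 0.29, edgeR adjusted p = 0.581), and without library 3 it passed with the split as a term (-0.67, edgeR adjusted p = 0.0236). Csf2rb (ENSMUSG00000071713, chromosome 15, 78325752 to 78353847, plus strand), the common beta chain, stood at 291, 223 and 324 CPM against 325, 286 and 382 CPM, with a log2 fold change of 0.25 (edgeR adjusted p = 0.548, SE 0.183) and overlapping groups.

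Csf2rb2 (ENSMUSG00000071714, chromosome 15, 78282507 to 78305721), beside Csf2rb on the opposite strand, had 157, 109 and 141 CPM in wild type against 184, 168 and 228 CPM in the mutants. Its groups did not overlap, with a log2 fold change of 0.51 (edgeR adjusted p = 0.198, SE 0.184), and without library 1 it passed with the split as a term (0.69, edgeR adjusted p = 0.0405). Of the 75-base windows of its annotated transcripts, 10.6% occur unchanged in transcripts of Csf2rb, and 33.4% do when 2 mismatches are allowed; for Csf2rb the shares are 7.15% and 22.4%. No source used here states how such reads were counted, so the division between these copies is uncertain.

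Both TNF receptor genes were higher in every mutant library. Tnfrsf1b (ENSMUSG00000028599, chromosome 4, 145213463 to 145246870, minus strand), for TNFR2, stood at 422, 323 and 198 CPM in libraries 1, 4 and 6 and at 626, 465 and 426 CPM in libraries 2, 3 and 5. The gap was narrow, since mutant library 5 lay only just above wild-type library 1. Its log2 fold change was 0.69 (SE 0.297, edgeR adjusted p = 0.276, and 0.0655 with the split as a term). Tnfrsf1a (ENSMUSG00000030341, chromosome 6, 125349362 to 125362484, plus strand), for TNFR1, stood at 157, 133 and 162 CPM against 175, 194 and 205 CPM, a difference of 0.34 on the log2 scale (SE 0.125, edgeR adjusted p = 0.201, and 0.113 with the split as a term). Libraries 2 and 6, which held the lowest and the highest RANK level, held the highest and the lowest Tnfrsf1b level. Neither TNF receptor passed in any of the fits on all 6 libraries; without library 3, Tnfrsf1b passed with the split as a term (log2 fold change 0.90, edgeR adjusted p = 0.0268).

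Lgr4 (ENSMUSG00000050199, chromosome 2, 109917647 to 110014257, plus strand) had the lowest counts of the 10, with 49, 158 and 85 counts in libraries 1, 4 and 6 and 242, 81 and 101 counts in libraries 2, 3 and 5. These were 5.72, 12.2 and 6.81 CPM and 16.9, 8.25 and 7.52 CPM, and the groups overlapped. The log2 fold change of 0.40 (SE 0.439, 95% interval -0.66 to 1.46, edgeR adjusted p = 0.719) rested on library 2: without it the value was -0.04.

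**Figure D2:**
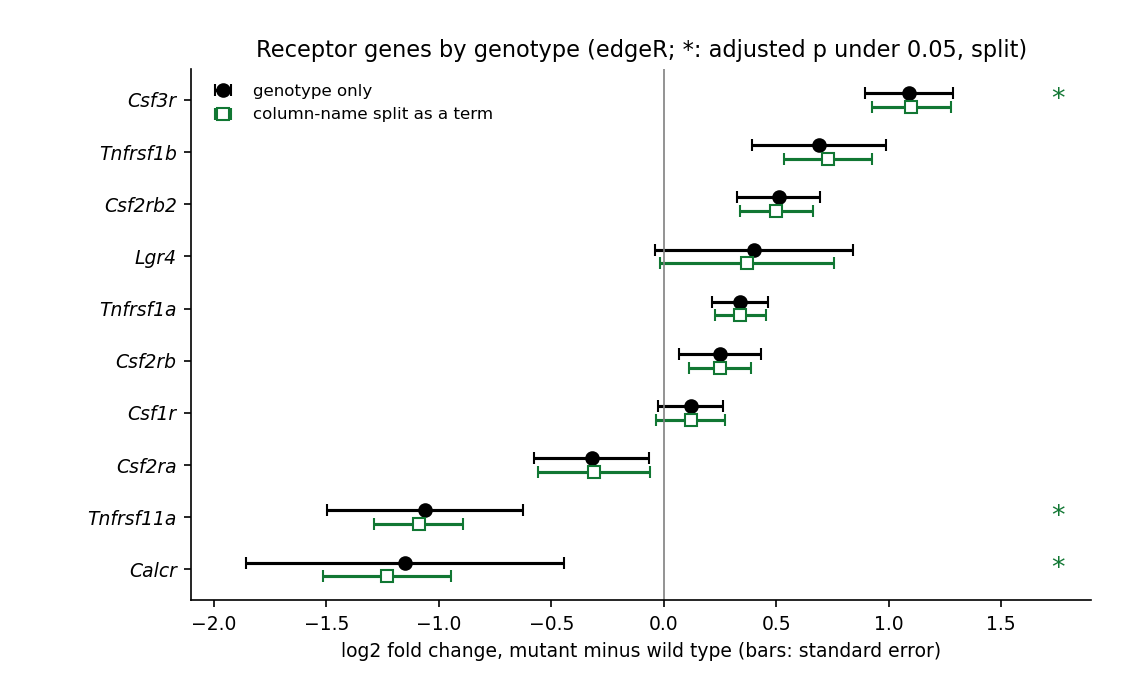
Log2 fold change of each receptor gene, mutant minus wild type, from edgeR on 6 libraries with genotype alone (filled circles) and with the column-name split as a term (open squares), bars showing the standard error. Asterisks mark an adjusted p under 0.05 with the split: Csf3r at 1.10, Tnfrsf11a at -1.09 and Calcr at -1.23; with genotype alone none passed.

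Levels of different genes were compared as CPM per kilobase of annotated exons. In the wild-type libraries Csf1r led with 504 CPM per kilobase ± 52.5 (SD, n = 3), followed by Csf2ra (124 ± 22.4), Tnfrsf1b (82.4 ± 29.3), Tnfrsf1a (58.2 ± 6.00), Csf2rb (38.4 ± 7.10), Csf2rb2 (28.7 ± 5.15), Tnfrsf11a (23.4 ± 9.26), Calcr (19.1 ± 12.8), Csf3r (18.7 ± 3.53) and Lgr4 (1.40 ± 0.593). Of the 9 neighbouring pairs in this order, 6 kept it in each wild-type library; Tnfrsf1b with Tnfrsf1a, Csf2rb2 with Tnfrsf11a and Calcr with Csf3r did not. In the mutant libraries Csf1r again led at 546 ± 20.7 and Lgr4 came last at 1.85 ± 0.891 CPM per kilobase. Csf3r stood above Tnfrsf11a and Calcr there, at 39.8 ± 7.57 against 11.2 ± 5.71 and 8.58 ± 6.92 CPM per kilobase, and did so in each mutant library. Tnfrsf1b (132 ± 27.7) and Csf2ra (99.2 ± 32.0), next after Csf1r, did not keep their order in every mutant library, and nor did Csf2rb2 and Csf3r.

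**Figure D3:**
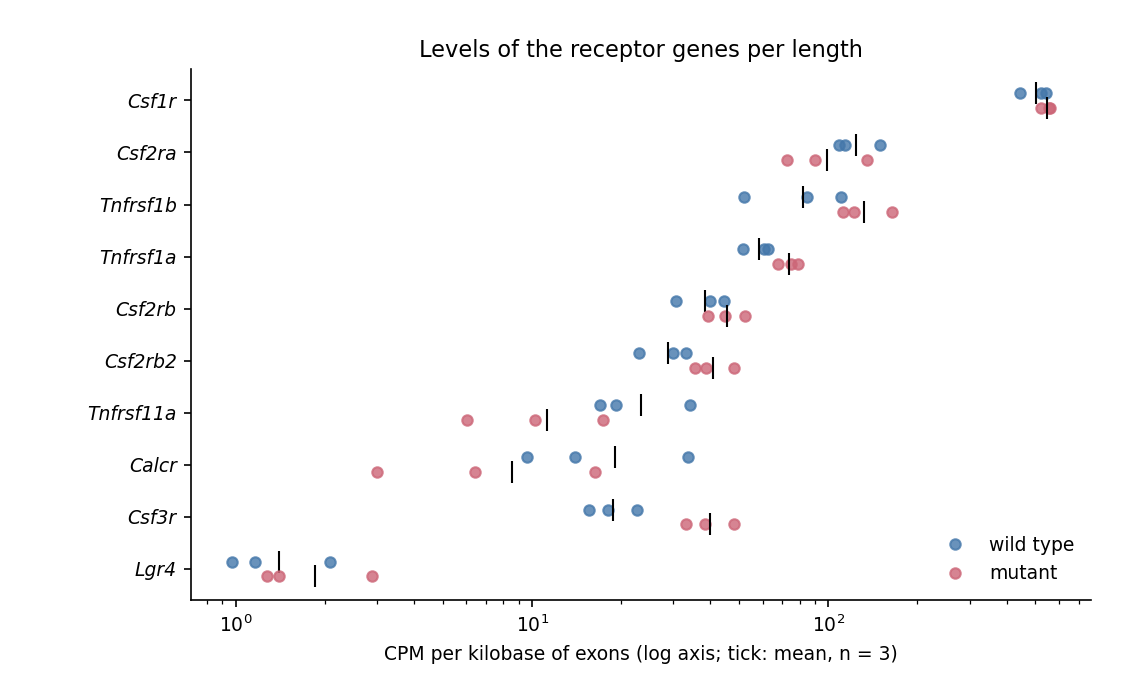
CPM per kilobase of exons on a log axis for each receptor gene, with 1 point per library and a tick at the mean of 3, wild type above mutant. Csf1r lies near 504 and 546 and Lgr4 near 1.40 and 1.85 CPM per kilobase; Csf3r stands level with Calcr in wild type and above Tnfrsf11a in the mutant libraries.

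Ratios between receptors within a library do not depend on how it is scaled, and 7 pairs were compared. For each Tnfrsf11a count there were 27.3, 25.3 and 14.9 Csf1r counts in wild-type libraries 1, 4 and 6, against 89.8, 49.3 and 30.8 in mutant libraries 2, 3 and 5. The ratio of M-CSF receptor to RANK counts was 2.37-fold higher in the mutant libraries, in each of which it lay above every wild-type value. The log2 difference was 1.25 (two-sided exact permutation p = 0.1, adjusted p = 0.35 over the 7 ratios), with 1.34 for libraries 1 to 4 alone and 1.05 for library 5 against 6. Csf2rb2 to Csf2rb was also higher in each mutant library, at 0.565, 0.587 and 0.598 against 0.540, 0.490 and 0.436 (exact permutation p = 0.1, adjusted p = 0.35), with the uncertainty of shared reads given above.

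Calcr and Tnfrsf11a had overlapping ratios, with 0.474, 0.369 and 0.647 Calcr counts per Tnfrsf11a count in wild-type libraries 1, 4 and 6, against 0.324, 0.411 and 0.615 in mutant libraries 2, 3 and 5. Its log2 difference of -0.16 (exact permutation p = 0.7) was smaller than the spread within either genotype (SD 0.41 and 0.47). The beta to alpha chain ratio, Csf2rb to Csf2ra, was 0.890, 0.715 and 0.754 against 1.56, 0.738 and 1.47, so mutant libraries 2 and 5 were high and library 3 was not (exact permutation p = 0.3). Csf1r to Csf2rb (log2 difference -0.13, p = 0.4), Tnfrsf1b to Tnfrsf1a (0.39, p = 0.6) and Lgr4 to Tnfrsf11a (1.5, p = 0.2) overlapped between genotypes by the same exact permutation test. No ratio could pass, because 0.1 is the smallest p of this design.

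**Figure D4:**
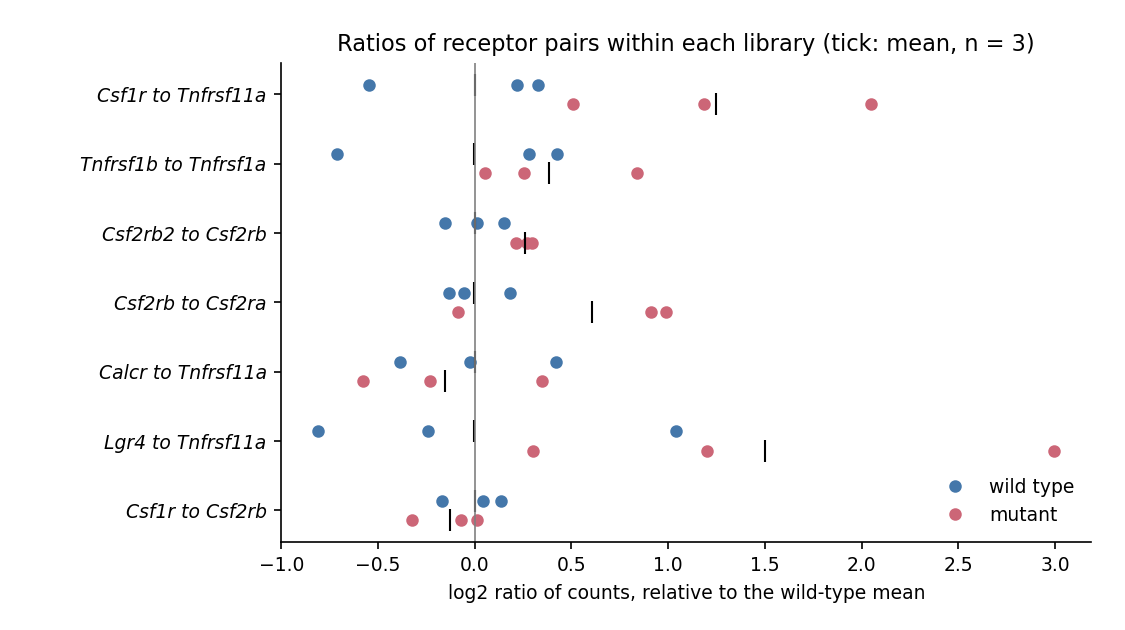
Log2 ratio of counts of 7 receptor pairs in each library, relative to the mean of the 3 wild-type libraries, with a tick at each mean. Csf1r to Tnfrsf11a and Csf2rb2 to Csf2rb lie higher in every mutant library than in any wild-type one (mean differences 1.25 and 0.26); the other pairs overlap.

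Genes whose level followed RANK or the M-CSF receptor were found by the root mean square difference of log2 CPM, centred on each gene's mean over the 6 libraries, among 9167 genes with a mean of at least 10 CPM. Closest to Tnfrsf11a were Itgav, the integrin alpha v chain (0.0975), Myo10, an unconventional myosin (0.1004), Bcar3 (0.109), Cycs, cytochrome c (0.111), and Itgb7, an integrin beta chain (0.134), against a median of 0.768 over all genes. Itgav for example ran 483, 388 and 797 CPM in libraries 1, 4 and 6 and 133, 262 and 368 CPM in libraries 2, 3 and 5. Among the other receptors Calcr was nearest to Tnfrsf11a (0.366) and Csf3r furthest (1.31). Closest to Csf1r were Wdr81 (0.0316), Tbc1d1 (0.0359), Taldo1 (0.0362), Wwp2 (0.0381) and Cr1l (0.0420), genes that likewise hardly varied, and the nearest receptor was Tnfrsf1a (0.143).

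**Figure D5:**
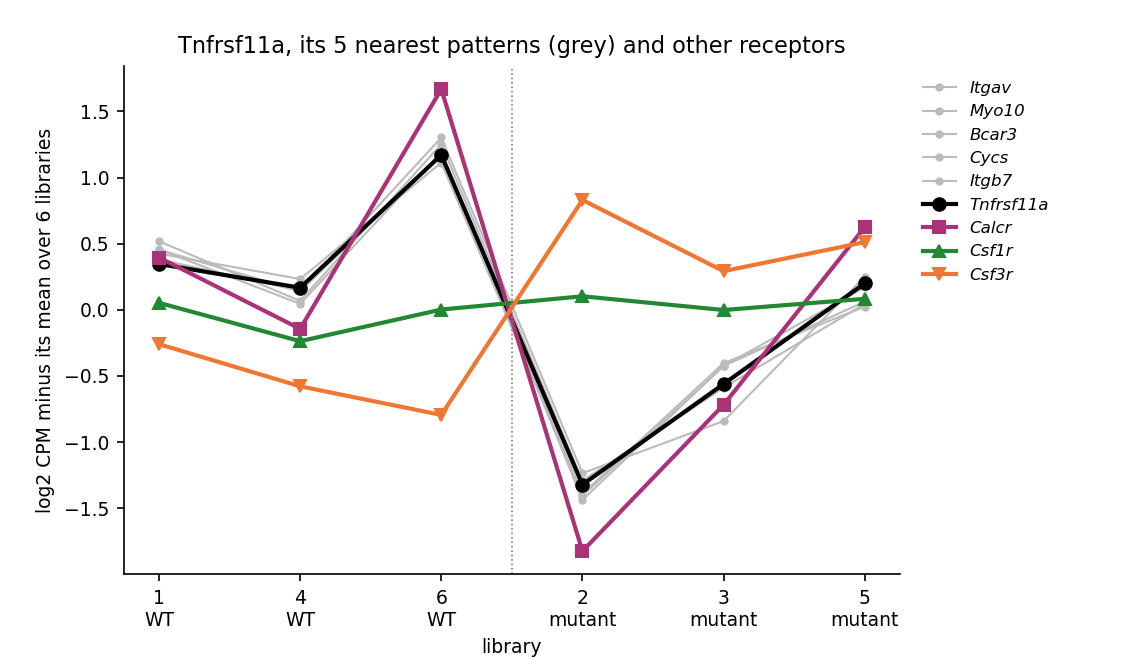
Log2 CPM minus its mean over 6 libraries (vertical axis) by library (horizontal axis, wild type left, mutant right) for 4 receptor genes and the 5 genes nearest to Tnfrsf11a (grey); lines only join points of 1 gene. Tnfrsf11a, Calcr and the grey genes are lowest in library 2 and highest in library 6, Csf1r is nearly flat and Csf3r is higher in each mutant library.

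The ligands were scarce apart from M-CSF. Of 13 listed ligands and soluble inhibitors 6 had enough reads to be tested, 5 of them above 0 and 1 below (median log2 fold change 0.81). Of these 0 passed in edgeR (with or without the split) or DESeq2, and 0 had an unadjusted edgeR p under 0.05. Over all genes tested 46.8% lay above 0 (median -0.03) and 19.6% had such an unadjusted p. Past the threshold were 0.0712% of all genes in edgeR with genotype alone, 8.68% with the split and 10.2% in DESeq2. At these shares, 0 of 6 genes past the threshold says little about the ligands. Csf1, for M-CSF, had 60.3, 43.8 and 157 CPM in libraries 1, 4 and 6 and 69.0, 228 and 328 CPM in libraries 2, 3 and 5, with overlapping groups (log2 fold change 1.26, SE 0.680, edgeR adjusted p = 0.386). Tnfrsf11b, for the RANKL decoy osteoprotegerin, stood at 11.1 CPM ± 5.004 against 19.3 CPM ± 8.61 (SD, n = 3 each). The 10 stromal and osteoblast markers, cells that make both, summed to 966 to 2660 CPM in the wild-type and 845 to 3543 CPM in the mutant libraries, and their part in these values was not tested.

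Adaptors below RANK and the TNF receptors were measured for 16 of 16 listed genes, 11 of them below 0 and 5 above (median -0.20). None passed with genotype alone, where 6 had an unadjusted p under 0.05, as did 19.6% of all genes. With the split as a term 3 fell and 1 rose, against 8.68% of all genes called, and in DESeq2 5 fell and 1 rose, against 10.2%. Traf6, the adaptor through which RANK signals, stood at 118, 100.3 and 146 CPM in libraries 1, 4 and 6 and at 51.9, 65.5 and 68.9 CPM in libraries 2, 3 and 5. The groups lay well apart, with a log2 fold change of -0.97 (edgeR adjusted p = 0.0786, SE 0.179; with the split adjusted p = 0.0165). Traf1, an adaptor induced by NF-kB, stood at 167 CPM ± 46.9 against 68.5 CPM ± 20.8, and Birc2, for the ubiquitin ligase cIAP1, at 87.0 CPM ± 7.65 against 46.5 CPM ± 3.25 (SD, n = 3 each). Map3k14, for the NF-kB inducing kinase NIK, which cIAP1 helps to degrade, was the one that rose with the split, from 34.1 CPM ± 2.63 to 48.1 CPM ± 1.20 (SD, n = 3 each; log2 fold change 0.50, edgeR adjusted p = 0.0404 with the split and 0.0859 without).

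Of 22 genes of CSF receptor signalling 15 lay above 0 and 7 below (median 0.17), and 0 passed in edgeR with genotype alone, where 10 had an unadjusted p under 0.05. With the split 2 fell, Src and Cblb, and 1 rose, and in DESeq2 6 rose and 2 fell. Over all genes 19.6% had such an unadjusted p, the split called 3.08% higher and 5.6% lower, and DESeq2 called 4.72% higher and 5.44% lower. Src, a kinase that osteoclasts need for resorption, stood at 360.4 CPM ± 148 against 128 CPM ± 63.9, and Cblb, a ubiquitin ligase, at 89.6 CPM ± 26.5 against 48.8 CPM ± 11.3 (SD, n = 3 each). Among 14 genes of calcitonin and Lgr4 signalling 11 lay above 0 and 3 below, with 0 past the threshold in edgeR with genotype alone, 4 at an unadjusted p under 0.05 (19.6% of all genes), and 3 past it in DESeq2 (2 higher, 1 lower, where 10.2% of all genes passed). With the split, which called 8.68% of all genes, the adenylyl cyclase gene Adcy3 fell, from 308 CPM ± 129 to 148 CPM ± 43.1, and the arrestin gene Arrb2 rose, from 141 CPM ± 10.97 to 254 CPM ± 22.4 (SD, n = 3 each). Calcrl, a relative of Calcr that also pairs with RAMP proteins, was the 1 gene of 8 tested partners and relatives to pass with the split, at 53.3, 47.9 and 41.0 CPM against 36.5, 31.7 and 30.2 CPM (log2 fold change -0.53, edgeR adjusted p = 0.118 without and 0.0403 with the split).

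Transcription factors known to act on these receptor genes were measured for 10 of 10 listed, 6 above 0 and 4 below (median 0.34). With genotype alone 0 passed and 4 had an unadjusted p under 0.05; with the split 4 rose and 1 fell, and in DESeq2 3 rose and 1 fell. The shares over all genes were 19.6% at that unadjusted p, 3.08% higher and 5.6% lower with the split, and 4.72% higher and 5.44% lower in DESeq2. Nfatc1, also on the osteoclast marker list, was the one that fell, from 920.3 CPM ± 309.7 to 281 CPM ± 119. Cebpa rose from 83.2 CPM ± 15.96 to 172 CPM ± 11.1 and Irf8 from 96.8 CPM ± 35.0 to 178 CPM ± 18.7 with that term (SD, n = 3 each). Cebpa and Irf8 encode factors of the monocyte and macrophage program; the macrophage marker sums are given above, and their part in these values was not tested. Of 6 genes of receptor shedding 0 passed in either edgeR fit or DESeq2 and 0 had an unadjusted p under 0.05; Adam17, the protease that sheds TNF receptors, stood at 253, 193 and 161 CPM against 302, 230 and 251 CPM, and Adam8 at 264 CPM ± 63.9 against 263 CPM ± 22.6 (SD, n = 3 each).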

How the data were processed

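RNA of 6 mouse osteoclast cultures was read from 1 end over 75 bases from stranded mRNA libraries, per the labels' protocols. TopHat2 2.0.13, Bowtie2 2.2.3, SAMtools 0.1.19 and the build mm10 are named in the submitters' processing notes; what counted the reads, on which strand and with which gene models is not given in the sources used here. The authors deposited raw whole-number counts per Ensembl gene, not normalized, in 23264 rows, of which 60 repeats with identical counts were dropped. Column names gave the genotype and no replicate number. No 2 libraries were alike within counting error; the lowest chi-square over its degrees of freedom was 27.4.

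Counts were scaled by TMM, filtered with filterByExpr and tested over all genes with the quasi-likelihood test of edgeR 4.0.16 in R 4.3.3, fitting genotype alone, and p-values were adjusted by Benjamini-Hochberg (threshold 0.05). Standard errors were obtained by dividing log2 fold changes by the root of F, and 95% intervals use the test's degrees of freedom. For single values and ratios an exact permutation test, two-sided, was used. Alternatives were RLE factors, library size alone, DESeq2 1.42.0, other filters, each library left out, and the column-name split as a term; leaving out libraries within that last fit was chosen after seeing the data. Exon lengths, overlaps and shared windows came from GENCODE M21, matching 99.8% of identifiers. The scripts were tested on simulated counts with 200 changed genes, drawn with the common biological coefficient of variation of each fit. With genotype alone, 8% of the 2-fold and 62% of the 4-fold changes passed the threshold. With the split as a term these shares were 49% and 99%. Most changes of 2-fold were thus missed with genotype alone in that simulation. Every simulated gene had the same coefficient of variation, so these shares do not tell how often a change in a single receptor would pass. Coefficients of variation of the receptors' CPM ran from 3.80% (Csf1r) to 80.7% (Calcr) in the mutant libraries.

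The receptors, gene lists and alternatives were chosen with earlier results of these data known. Named were all 10 receptors, Tet2 and Tet3, the 5 nearest genes of Tnfrsf11a and Csf1r among those with a mean of at least 10 CPM, and of each pathway list up to 4 genes past the threshold in edgeR with or without the split, by size of fold change, or else the 2 with the highest mean CPM; predicted genes were skipped. Some genes that this rule names are not reported here. Dendritic cell markers (6 of 8 reached 1 CPM in a library), the lymphocyte markers (4 of 7) and the mast cell or erythroid markers (4 of 7) were used only as marker sums, of 708 to 1750 and 1420 to 5227 CPM, 2.01 to 5.02 and 2.87 to 8.78 CPM, and 2.16 to 45.5 and 2.83 to 49.8 CPM in the wild-type and mutant libraries.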

Additional observations from a re-analysis of the deposited data

How the results depend on the processing

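Genes past the threshold numbered 10 (7 higher, 3 lower) with TMM, and 88 (42 and 46) with library size only, 81 (46 and 35) with no filter on low counts, 1426 (662 and 764) in DESeq2 and 1219 (433 and 786) with the column-name split as a term. Leaving out each library gave 0 to 3, and 170 to 1845 with the split as a term; it was 564, 170, 418 and 1845 without library 1, 4, 2 and 3. Where 0 genes passed in edgeR (without library 1, 3, 4 or 5), 2527, 2001, 2676 and 2345 had an unadjusted p under 0.05. Of the receptors 1 passed in DESeq2 and 3 with the split, where leaving out a library gave 0 (without library 4) to 5 (without library 3); with genotype alone, leaving out each library gave 0. Other pathway genes listed numbered 115, not all of them tested. Past the threshold were 0 of them, and 2 with library size only, 3 with no filter, 26 in DESeq2 and 17 with the split (5 to 21 leaving out a library). Over all genes these alternatives called 88 of 14040, 81 of 23204, 10.2% and 8.68%, in the same order.

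Receptors past the threshold under an alternative on all 6 libraries were Tnfrsf11a (-1.09), Calcr (-1.23) and Csf3r (1.10) with the split, and Csf3r in DESeq2 (1.13). With the split and 1 library left out, Csf2ra (-0.67) and Tnfrsf1b (0.90) also passed without library 3, and Csf2rb2 (0.69) without library 1. Leaving out each library with genotype alone, log2 fold changes ranged from -1.53 to -0.67 for Tnfrsf11a, -2.03 to -0.42 for Calcr, 0.97 to 1.24 for Csf3r, 0.45 to 0.95 for Tnfrsf1b, 0.29 to 0.44 for Tnfrsf1a, 0.37 to 0.62 for Csf2rb2, 0.12 to 0.38 for Csf2rb, -0.61 to -0.11 for Csf2ra, 0.07 to 0.17 for Csf1r and -0.04 to 0.83 for Lgr4, the one that changed sign (without library 2). With the split as a term they ranged from -1.31 to -0.85 for Tnfrsf11a, -1.52 to -0.91 for Calcr, 1.0 to 1.27 for Csf3r, 0.69 to 0.90 for Tnfrsf1b, 0.42 to 0.69 for Csf2rb2 and -0.67 to -0.11 for Csf2ra. Between libraries 5 and 6 alone the log2 ratio was -0.73 for Csf2ra, and 0.45 for Csf2rb2 to Csf2rb. The Calcr to Tnfrsf11a ratio turned to 0.05 without library 6 and 0.06 without library 2 (range -0.41 to 0.06), and no other ratio changed sign. The cause of these shifts was not tested.

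The order of levels was the same with library size only; with the longest transcript as length, Csf3r stood above Csf2rb2 in the mutant libraries. No paired analysis was possible because the columns carry no replicate number. Precision was limited by 3 libraries per genotype and a common biological coefficient of variation of 40.9% (23.5% with the split), and for Lgr4 also by counts of 49 to 242.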

Other observations

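Other members of the TNF receptor superfamily showed values on both sides of 0. Of 22 listed genes 17 were tested, 12 of them above 0 and 5 below (median log2 fold change 0.49, beside -0.03 over all genes), and 0 passed in edgeR with genotype alone, where 6 had an unadjusted p under 0.05, as did 19.6% of all genes. With the column-name split as a term Tnfrsf9 fell and Tnfrsf26 rose, where 8.68% of all genes passed, and in DESeq2 3 rose and 1 fell, where 10.2% did. Tnfrsf9, for the costimulatory receptor 4-1BB, stood at 11.5, 10.2 and 20.8 CPM in libraries 1, 4 and 6 and at 2.17, 2.85 and 4.84 CPM in libraries 2, 3 and 5 (log2 fold change -2.11, SE 0.433, edgeR adjusted p = 0.0917, and 0.0135 with the split). Tnfrsf26 stood at 6.77, 5.58 and 4.25 CPM against 15.5, 11.3 and 8.86 CPM (log2 fold change 1.10, SE 0.308, edgeR adjusted p = 0.134, and 0.0403 with the split). In both genes the groups did not overlap.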
